A study of Homo sapiens with 16 samples.

Results

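The experiment described here is the pair of control assays of a CUT&RUN study in MCF-10A cells. MCF-10A is an immortalized, non-tumorigenic human breast epithelial line. Of the 16 libraries in the series, 4 belong to these controls, and all 4 came from untreated cells, so neither vehicle nor octanoic acid was present. A rabbit IgG negative control antibody was used in 2 libraries (IgG 1 and IgG 2), and an antibody to trimethylated lysine 4 of histone H3 (H3K4me3) in the other two (H3K4me3 1 and H3K4me3 2). The other 12 libraries profiled H3K4me3 or H3K27me3, in 3 libraries a group, after 24 h with 5 mM octanoic acid or with PBS vehicle. The members were chosen by their antibody and treatment labels alone, and their peak lists held 1480 peaks (IgG 1), 1367 peaks (IgG 2), 13202 peaks (H3K4me3 1) and 11503 peaks (H3K4me3 2).

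In CUT&RUN, an antibody bound in permeabilized cells tethers a fusion of protein A/G and micrococcal nuclease, which cuts the chromatin around the antibody and releases short fragments for sequencing. A nonspecific IgG has no chromatin target, so its fragments record untargeted cutting and the way reads pile up on the assembly. H3K4me3 is laid down around active and poised promoters, mostly at CpG islands. Human centromeres are built of alpha satellite, a tandem repeat of a short unit, some copies of which carry the CENP-B box bound by the centromere protein CENP-B. The chromatin beside them includes satellites built on the 5-base unit ATTCC, read GGAAT on the other strand. Such arrays are only partly represented in the reference assembly, which matters for any assay that counts reads by position.

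Reference sequence (hg38, plus strand, 5′ to 3′, 200 bases around the summit unless stated) at regions called in both IgG libraries shows the kinds of sequence on which the rest of the description turns. The first 3 are satellites on chromosomes 10, 4 and 1, with each ATTCC or GGAAT in capitals. They lie at chr10:41859844-41860043, chr4:49149363-49149562 and chr1:143202603-143202802.
chr10 satellite: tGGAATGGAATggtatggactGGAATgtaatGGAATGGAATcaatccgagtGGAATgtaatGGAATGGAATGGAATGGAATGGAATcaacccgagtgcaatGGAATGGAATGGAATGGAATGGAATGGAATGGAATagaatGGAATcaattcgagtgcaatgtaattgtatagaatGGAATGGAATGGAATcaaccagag
chr4 satellite: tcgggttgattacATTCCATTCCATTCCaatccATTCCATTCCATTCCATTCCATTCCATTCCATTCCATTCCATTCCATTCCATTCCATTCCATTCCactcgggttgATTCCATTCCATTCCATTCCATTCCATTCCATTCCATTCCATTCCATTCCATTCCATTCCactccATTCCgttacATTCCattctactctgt
chr1 satellite: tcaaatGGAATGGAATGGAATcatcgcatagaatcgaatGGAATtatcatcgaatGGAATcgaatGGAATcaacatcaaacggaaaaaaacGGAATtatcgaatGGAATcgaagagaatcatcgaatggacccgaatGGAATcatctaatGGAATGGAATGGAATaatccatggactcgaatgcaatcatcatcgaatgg
In these windows 110, 150 and 60 of the 200 bases lay in such units. The next is 300 bases of alpha satellite at chr1:124377099-124377398, with its single CENP-B box core in capitals (TTCG, 4 bases, A, 2 bases, CGGG, searched on both strands).
chr1 alpha satellite: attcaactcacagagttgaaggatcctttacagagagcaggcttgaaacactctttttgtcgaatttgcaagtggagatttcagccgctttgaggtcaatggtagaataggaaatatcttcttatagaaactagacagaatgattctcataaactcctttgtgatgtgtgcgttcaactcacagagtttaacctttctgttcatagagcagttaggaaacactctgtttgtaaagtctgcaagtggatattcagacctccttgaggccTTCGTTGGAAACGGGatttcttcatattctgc
The following window, at chr1:633929-634128, lies in MTATP6P1, a nuclear pseudogene copied from mitochondrial DNA. Its 2 capitals mark the bases that differ from the mitochondrial genome of the same assembly.
MTATP6P1: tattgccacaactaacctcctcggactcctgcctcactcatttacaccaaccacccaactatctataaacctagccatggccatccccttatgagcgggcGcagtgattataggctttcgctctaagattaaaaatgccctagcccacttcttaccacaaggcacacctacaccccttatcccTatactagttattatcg
The region with the highest fold enrichment in IgG 2 follows, at chr17:22521295-22521494. After it come a window in an intron of GPI, the gene of the glycolytic enzyme glucose-6-phosphate isomerase, at chr19:34391436-34391635, and, for contrast, the 200 bases before the annotated start of PABPN1, a nuclear poly(A)-binding protein gene, at chr14:23321257-23321456, where both H3K4me3 libraries and neither IgG library had a peak. In these 3, CG dinucleotides are in capitals.
chr17 region: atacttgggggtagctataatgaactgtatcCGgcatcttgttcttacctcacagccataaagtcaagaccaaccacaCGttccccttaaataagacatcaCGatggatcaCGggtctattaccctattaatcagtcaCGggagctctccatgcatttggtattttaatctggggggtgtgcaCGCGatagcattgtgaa
GPI intron: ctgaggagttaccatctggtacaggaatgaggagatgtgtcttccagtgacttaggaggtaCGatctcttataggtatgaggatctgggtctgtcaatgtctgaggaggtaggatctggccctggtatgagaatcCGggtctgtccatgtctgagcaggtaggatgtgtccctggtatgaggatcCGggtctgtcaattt
PABPN1 upstream: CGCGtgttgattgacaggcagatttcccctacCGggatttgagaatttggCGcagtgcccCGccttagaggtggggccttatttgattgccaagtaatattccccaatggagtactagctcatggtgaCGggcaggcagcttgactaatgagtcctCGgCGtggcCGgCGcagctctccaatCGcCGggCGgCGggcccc
The PABPN1 window held 14 CG dinucleotides against 7 in the chr17 region and 3 in the GPI intron. The GPI intron is not far from a start site either. Its summits lay 187 bp (IgG 1) and 660 bp (IgG 2) from an annotated GPI start.

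Library facts were checked first. Each list is the output of the peak caller MACS2, whose column 7 is the fold enrichment of a peak's summit over its local background. Sequencing depth per library was not used here, because the lists hold peaks and no read totals. Fold and p-value were solved together for the height of the fragment pileup at the summit and for the background set against it, and an exact solution was found for 100% of the peaks in the 4 lists. The lowest background of any peak was 0.963 fragments in IgG 1, 0.618 in IgG 2, 0.941 in H3K4me3 1 and 0.947 in H3K4me3 2. The largest q-value in the IgG lists was 0.00983 for IgG 1 and 0.00923 for IgG 2. The cell type label was compared with marker genes: of 13 mammary basal epithelial markers, 12 had an H3K4me3 1 peak and 11 an H3K4me3 2 peak within 1 kb of a start site, with TP63 the one without a peak in either library. Epithelial adhesion markers were called less often: of 9, 6 had an H3K4me3 1 peak and 4 an H3K4me3 2 peak. EPCAM, CLDN4 and GRHL2 had none in either library. None of 16 markers of other lineages, such as PTPRC of blood cells, ALB of liver and PECAM1 of endothelium, had a peak in any of the 4 lists. Peaks lay within 1 kb of a start site of 51.8% and 47.7% of the 20007 protein-coding genes in the H3K4me3 libraries, against 0.925% in IgG 1 and 0.055% in IgG 2.

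On the autosomes, X and Y (the main chromosomes), IgG 1 had 1280 peaks and IgG 2 had 1131, while H3K4me3 1 had 12924 and H3K4me3 2 had 11242. Both IgG lists were shorter than both H3K4me3 lists, with means of 1206 ± 105 and 12083 ± 1190 peaks (SD, n = 2 libraries each). IgG peaks covered 570 kb and 438 kb, and H3K4me3 peaks 8093 kb and 6583 kb. The median IgG peak was 328 bp long in IgG 1 and 252 bp in IgG 2, against 555 bp and 517 bp for H3K4me3. With 2 libraries against 2, the two-sided exact permutation test cannot give a p below 0.333, which is the value it gave for the number of peaks, the covered length and the median length. It also gave 0.333 for every share compared below between IgG and H3K4me3, unless another value is given, so these differences rest on the groups not overlapping.

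Median fold enrichment did not separate the antibodies. It was 5.32 in IgG 1, 6.18 in IgG 2, 5.599 in H3K4me3 1 and 5.44 in H3K4me3 2, so both H3K4me3 values fell between the IgG values (exact permutation p = 1). The highest fold was 37.1 in IgG 1 and 49.0 in IgG 2. The median pileup was 25 fragments in both IgG lists and 21 and 19 in the H3K4me3 lists. The highest was 3003 and 3233 fragments in IgG and 2586 and 2924 in H3K4me3, where the backgrounds were high as well. The number of peaks with at least 100 fragments was similar, 207 and 235 in IgG and 207 and 211 in H3K4me3. Because the IgG lists were shorter, these were 14.0% and 17.2% of all IgG peaks and 1.57% and 1.83% of all H3K4me3 peaks.

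IgG peaks lay mostly in repeated sequence. Each summit was placed in 1 of 4 classes: ATTCC satellite (at least 15% of 200 bases in ATTCC or GGAAT), 171-bp repeat (at least 45% identity with itself when shifted by 169 to 173 bases, over 400 bases, 171 being the shift at which the satellite block of chromosome 1 was most like itself), other multi-copy (at least 50% of its 36-base words found again in the assembly) and single-copy. The 171-bp repeat held 42.6% of IgG 1 peaks and 47.4% of IgG 2 peaks, against 5.16% and 5.32% of H3K4me3 peaks and 2.21% of 29370 windows spaced every 100 kb over the genome. ATTCC satellite held 14.7% and 24.1% of IgG peaks, 1.72% and 1.99% of H3K4me3 peaks and 0.0919% of genome windows. Single-copy sequence held 24.8% (95% Wilson interval 22.5 to 27.2) of IgG 1 peaks and 10.2% (8.54 to 12.1) of IgG 2 peaks, against 87.8% and 87.0% of H3K4me3 peaks and 86.0% of genome windows. These intervals cover counting error only. The IgG libraries also differed from each other, IgG 1 having the larger single-copy share and IgG 2 the larger ATTCC share.

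**Figure D1:**
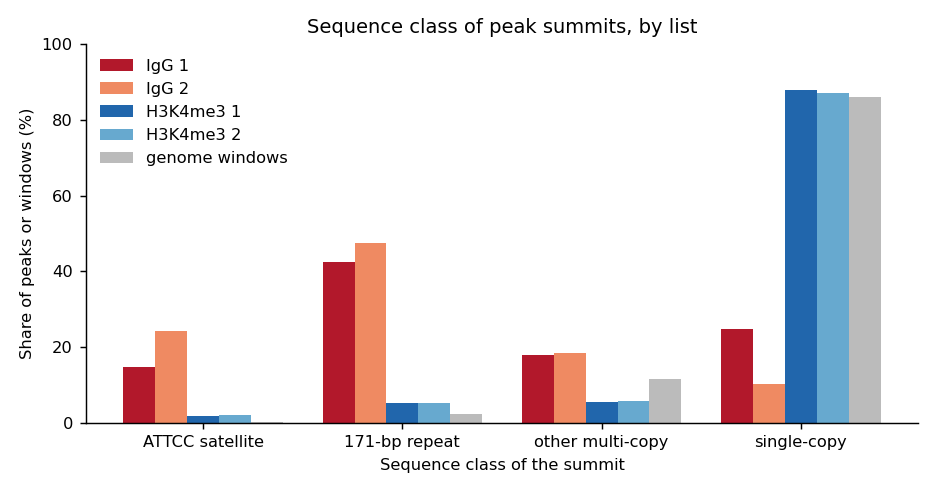
Share of peak summits (%, vertical axis) in 4 sequence classes for the IgG and untreated H3K4me3 lists on the main chromosomes, with the share of evenly spaced genome windows in grey. The 171-bp repeat holds 42.6% and 47.4% of IgG peaks, and single-copy sequence 87.8% and 87.0% of H3K4me3 peaks.

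Placed on the chromosomes, the IgG peaks clustered at centromeres. Satellite blocks were taken as runs of 100-kb bins with at least 10 CENP-B box cores. Inside them lay 46.1% (43.4 to 48.8) of IgG 1 peaks and 49.1% (46.2 to 52.0) of IgG 2 peaks, against 5.52% and 5.82% of H3K4me3 peaks and 2.10% of genome windows. Within 2 Mb of a block these shares were 58.7% and 65.4% for IgG, 8.98% and 9.34% for H3K4me3, and 5.48% for the genome. Few peaks lay within 100 kb of a chromosome end, though each list was above the genome share. These were 0.625% and 1.59% of IgG peaks, 0.255% and 0.276% of H3K4me3 peaks and 0.0851% of genome windows. The difference in means between IgG and H3K4me3 was 0.84 percentage points. It was 13.7 when contigs, which are short and so lie near their own ends, were counted as well. Within 10 kb of an assembly gap lay 7.27% and 12.5% of IgG peaks, 1.08% and 1.12% of H3K4me3 peaks and 0.167% of genome windows.

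Chromosome 1 carried most of the centromeric peaks. Its block, chr1:121600001-125100000, held 340 of the 590 IgG 1 block peaks and 303 of the 555 IgG 2 block peaks, and the same block held 390 of 714 H3K4me3 1 peaks and 359 of 654 H3K4me3 2 peaks found in blocks. In absolute number, then, the H3K4me3 lists had no fewer peaks inside the blocks than the IgG lists. Chromosome 13 followed, with 62 and 61 IgG peaks in its block, then chromosome 10 with 49 and 46, chromosome 17 with 36 and 42 and chromosome 6 with 24 and 25. The blocks of chromosomes 14, 21 and 22, of 2.0, 1.9 and 2.2 Mb, had 0 peaks in all 4 lists. The unequal spread over chromosomes was therefore alike in IgG and H3K4me3. The 10 fullest megabases held 43.0% of IgG 1 peaks and 47.6% of IgG 2 peaks, against 4.98% and 5.41% of H3K4me3 peaks. Chromosome Y, where no block was found, held 35 IgG 1 and 66 IgG 2 peaks, or 2.73% and 5.84% of each list. It held 56 H3K4me3 1 and 52 H3K4me3 2 peaks, or 0.433% and 0.463%. Whether these cells carry a chromosome Y was not tested.

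**Figure D2:**
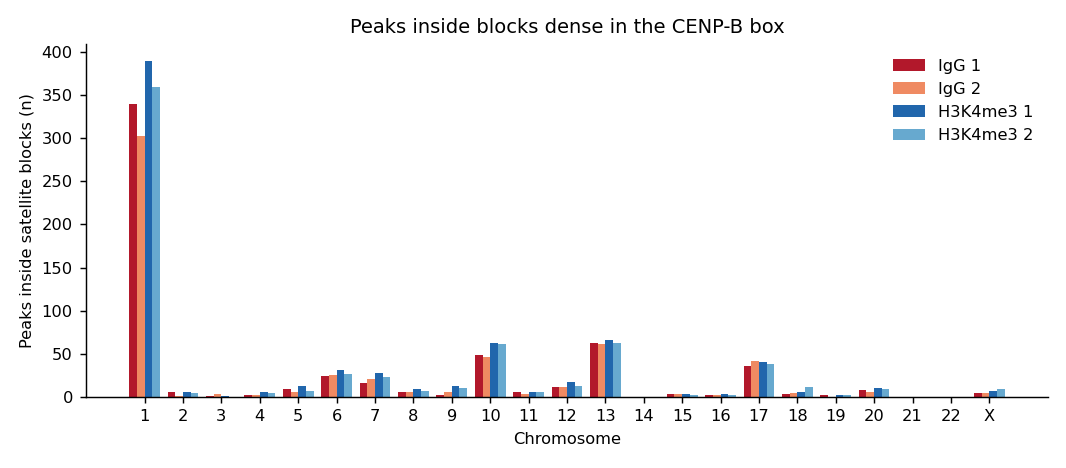
Number of peaks (vertical axis) inside satellite blocks on each chromosome for the 4 control lists. Chromosome Y, which has no block, is not drawn. Chromosome 1 has 340 and 303 IgG peaks and 390 and 359 H3K4me3 peaks, and chromosomes 14, 21 and 22 have none.

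The alpha satellite region printed above, chr1:124377086-124377523, had pileups of 227 and 180 fragments in IgG 1 and IgG 2 and of 191 and 186 in H3K4me3 1 and 2. Its fold was 19.2, 26.4, 20.3 and 20.7 in the same order, so the antibodies overlapped. Among 171-bp repeats, the one ranked highest over both IgG lists was chr17:26603606-26604443, with 726 and 520 fragments in IgG and 644 and 631 in H3K4me3. Summits of this class carried 36-base words found a median of 729 times in the assembly for IgG 1 and 908.5 times for IgG 2.

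ATTCC satellites, with 188 and 273 IgG peaks and 222 and 224 H3K4me3 peaks on the main chromosomes, gave the tallest peaks. Of the 50 IgG peaks with the highest pileups on all sequences, 39 in IgG 1 and 48 in IgG 2 were of this class, and in the H3K4me3 lists 42 and 43 of 50. The tallest of all was chr1:125178883-125180707, with 3003 and 3233 fragments in IgG and 2586 and 2924 in H3K4me3. It lies just outside the chromosome 1 alpha satellite block, between genes, and its IgG folds were only 7.50 and 8.43. The chr10 satellite printed first, part of chr10:41859282-41860396, had 1105 and 1628 fragments in IgG, with folds of 26.1 and 38.7, and 947 and 1105 fragments in H3K4me3, with folds of 29.0 and 28.7. The chr4 satellite, in chr4:49148800-49150050, had 1059 and 1536 fragments in IgG and 983 and 1157 in H3K4me3. A further cluster on chromosome 1, in the megabase chr1:143000001-144000000, held 34 and 41 IgG peaks and 36 peaks in each H3K4me3 list. Its member printed above, in chr1:143202421-143202896, had 1130 and 1327 fragments in IgG and 1044 and 1243 in H3K4me3. Unlike the 171-bp repeats, ATTCC summits carried words with a median of 2 copies in the assembly, in both IgG lists.

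**Figure D3:**
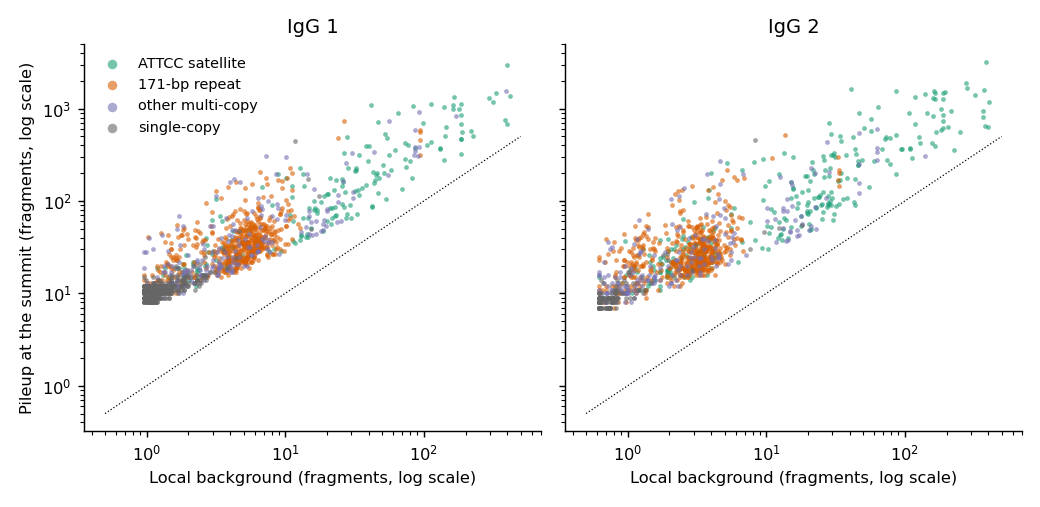
Pileup at the summit against the local background set by the caller (both in fragments, log axes) for each IgG peak on the main chromosomes, coloured by sequence class, with a dotted line where they are equal. ATTCC satellites reach 3003 fragments in IgG 1 and 3233 in IgG 2, while single-copy peaks have medians of 11 and 9.

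Unplaced and random contigs, short stretches that the assembly does not place on a chromosome, held 200 IgG 1 peaks (13.5%, 11.9 to 15.4) and 236 IgG 2 peaks (17.3%, 15.4 to 19.4). In the H3K4me3 lists they held 278 and 261 peaks, which was 2.11% and 2.27% of all peaks. As in the blocks, the number was similar and the share was not. The contig chr14_GL000225v1_random, of 211 kb, led with 47 and 45 IgG peaks and 53 in each H3K4me3 list. It was followed by chrUn_GL000216v2 with 19 and 26 IgG peaks, and by chr22_KI270736v1_random with 13 and 23, all of them ATTCC satellite. Taller peaks stood on chr17_KI270729v1_random, where 10 and 11 IgG peaks, again all ATTCC satellite, reached 1126 and 1891 fragments. No peak of the 4 lists lay on the mitochondrial genome.

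A few mitochondrial pseudogenes were among the strongest IgG regions. Of 404 annotated mitochondrial pseudogenes, 8 had a peak within 1 kb in each of the 4 lists. The shares over all 62663 annotated genes were 0.792% and 0.327% for IgG, and 23.9% and 21.7% for H3K4me3. Over all sequences, 7 peaks in each IgG list, 7 in H3K4me3 1 and 6 in H3K4me3 2 aligned with the mitochondrial genome over at least 100 bases. Several lay in a stretch of chromosome 1 that holds copies of the genes for subunits of the respiratory chain and of ATP synthase. There, the MTATP6P1 region chr1:633906-634210 had 590, 605, 502 and 337 fragments in IgG 1, IgG 2, H3K4me3 1 and H3K4me3 2. Both H3K4me3 pileups were below both IgG pileups, which are not scaled between libraries. Its folds were 6.81, 9.48, 8.05 and 7.85 in the same order, so by fold the antibodies overlapped. Its printed window was 99.0% identical to mitochondrial positions 8760 to 8959. The MTCO1P12 pseudogene of cytochrome c oxidase subunit 1 held 2 peaks in each library. The one nearer the start of the pseudogene had 347 and 277 fragments in IgG and 220 and 174 in H3K4me3, and the other 383 and 343 in IgG and 216 and 166 in H3K4me3.

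The region with the highest fold in IgG 2, chr17:22521207-22521606, was single-copy by its 36-base words. It had 447 and 453 fragments in IgG and 309 and 281 in H3K4me3, over backgrounds of 11.7, 8.26, 7.29 and 6.73 fragments, which gave folds of 35.3, 49.0, 37.4 and 36.5. Each background was above its library's median, which was 3.63, 2.92, 2.75 and 2.57 fragments. It lies between genes, 1778 bp from the start of the pseudogene MTCYBP13. When the ends of the mitochondrial circle were joined, 391 bases of the region aligned at 87.0% identity from position 16376 across the origin to position 197, a stretch within the control region where mitochondrial replication and transcription start. A shorter one, chr13:109424132-109424336, was identical to mitochondrial sequence over all its 205 bases. It had 195 fragments in IgG 2 and 189 in H3K4me3 1, and no peak in IgG 1 or H3K4me3 2, so its presence did not follow the antibody.

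Few ribosomal RNA genes had a peak close by. Of 544 annotated ribosomal RNA genes and pseudogenes, 3 had an IgG 1 peak and 2 an IgG 2 peak within 1 kb. In the H3K4me3 lists 15 and 13 had one. The IgG shares over all 62663 annotated genes were 0.792% and 0.327%, and the H3K4me3 shares 23.9% and 21.7%. A wider stretch was looked at after the data were seen. Around the 4 annotated genes of 5.8S ribosomal RNA on chromosome 21, within 45 kb of them, lay 16 IgG 1 and 17 IgG 2 peaks, and 21 and 27 H3K4me3 peaks. None of the IgG or H3K4me3 1 peaks and 1 of the H3K4me3 2 peaks touched a 5.8S gene. They were shallow relative to a high background, with median folds of 2.89 in both IgG lists, 2.86 in H3K4me3 1 and 2.73 in H3K4me3 2.

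The DUX4 family comprises a double homeobox transcription factor of the early embryo and its many copies in macrosatellite arrays. Of its 42 annotated genes, 14 had an IgG 1 peak and 11 an IgG 2 peak within 1 kb, against 20 in each H3K4me3 list. Over all 62663 annotated genes these shares were 0.792% and 0.327% for IgG, and 23.9% and 21.7% for H3K4me3. The DUX4 region itself on chromosome 4 had 736 and 435 fragments in IgG and 630 and 648 in H3K4me3. At DUX4L26 the values were nearly level, 196 and 196 fragments in IgG and 177 and 192 in H3K4me3. The pseudogene DUX4L9 had 107 and 104 fragments in IgG and 91 and 103 in H3K4me3. Of 11 genes of the REXO1L family, another macrosatellite, 4 had an IgG 1 peak, none an IgG 2 peak and 5 a peak in each H3K4me3 list. In the USP17L family of 30 genes, 3 and 2 had an IgG peak and 2 and 1 an H3K4me3 peak. Its member USP17L11 had 19 and 12 fragments in IgG and no peak in either H3K4me3 list.

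Genes were otherwise sparsely hit. Annotated genes held 24.5% of IgG 1 peaks and 16.8% of IgG 2 peaks, against 85.8% and 86.3% of H3K4me3 peaks and 60.7% of genome windows. Exons held 9.38% and 3.36% of IgG peaks and 45.02% and 47.4% of H3K4me3 peaks. The genome windows gave 5.33% for exons, between the IgG values. Introns held 15.1% and 13.4% of IgG peaks, 40.8% and 38.9% of H3K4me3 peaks and 55.3% of genome windows. Within 1 kb of a start site lay 191 of 1280 IgG 1 peaks, or 14.9% (13.1 to 16.98), and 46 of 1131 IgG 2 peaks, or 4.07% (3.06 to 5.38). The genome windows gave 7.02%, between the IgG values, and the H3K4me3 lists 83.6% and 84.8%. The summit windows also differed in base composition, with a median GC content of 41.0% and 40.5% for IgG and 65.0% and 66.5% for H3K4me3.

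Reproducibility depended on rank and class. An overlap of at least 1 base with a peak of the other replicate was found for 47.3% (44.6 to 50.1) of IgG 1 peaks and 54.7% (51.8 to 57.6) of IgG 2 peaks. For H3K4me3 the shares were 72.4% and 83.4%, a difference in means of -26.9 percentage points (exact permutation p = 0.333). The 2 shares of an antibody are the 2 directions of overlap of 1 pair of libraries. They are not independent, so the permutation test cannot judge this difference. When each list was ranked by the p-value and cut into 5 equal parts, 98.8% and 90.7% of IgG peaks and 96.1% and 97.6% of H3K4me3 peaks in the strongest part were found again. In the weakest part this fell to 4.69% and 15.4% for IgG and to 32.3% and 54.6% for H3K4me3. By class, 91.0% of IgG 1 and 63.7% of IgG 2 ATTCC peaks overlapped a peak of the other IgG library. For the 171-bp repeat the shares were 56.9% and 59.7%, for other multi-copy sequence 49.1% and 53.6%, and for single-copy sequence 3.79% and 12.2%.

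**Figure D4:**
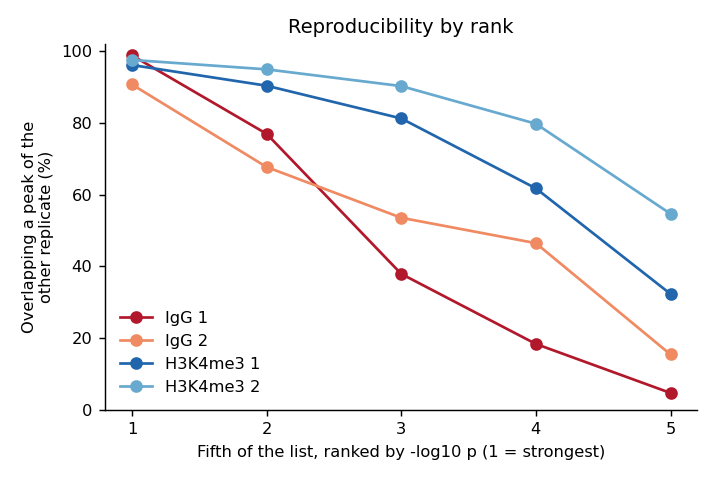
Share of peaks that overlap a peak of the other replicate (%, vertical axis) in 5 equal parts of each list ranked by -log10 p, from strongest (1) to weakest (5). The IgG lists run from 98.8% and 90.7% down to 4.69% and 15.4%, and the H3K4me3 lists from 96.1% and 97.6% down to 32.3% and 54.6%.

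Most IgG peaks coincided with an H3K4me3 peak. On the main chromosomes 69.8% of IgG 1 and 69.8% of IgG 2 peaks overlapped a peak of either H3K4me3 library, and 53.4% and 53.7% one of both. The reverse share was small, 7.27% of H3K4me3 1 and 8.21% of H3K4me3 2 peaks. Merging all 4 lists gave 15174 regions, of which 500 (3.3%) were called in all 4 libraries and 27 (0.178%) in both IgG libraries and neither H3K4me3 library.

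Merging the IgG lists alone gave 1783 regions, 597 of them called in both IgG libraries. Among these 597, 502 had a peak in both H3K4me3 libraries, 68 in one and 27 in none. The 597 comprised 309 regions of the 171-bp repeat, 164 of ATTCC satellite, 112 of other multi-copy and 12 of single-copy sequence. A peak in both H3K4me3 libraries was found at 82.5%, 87.8%, 81.2% and 100% of them, respectively. None of the satellite regions of the first 2 classes lay within 1 kb of a start site.

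At the 502 regions shared by all 4 libraries, IgG and H3K4me3 pileups were of the same order. Over the 144 ATTCC regions the median pileup was 146 in IgG 1, 202.5 in IgG 2, 141 in H3K4me3 1 and 155.5 in H3K4me3 2. Over the 255 regions of the 171-bp repeat the medians were 43, 31, 40 and 39. For the 171-bp repeat both H3K4me3 medians fell between the IgG medians, and for ATTCC satellite H3K4me3 2 did, while H3K4me3 1 was lowest by 5 fragments. After division by each library's lowest background, the summed IgG pileup exceeded the summed H3K4me3 pileup at all 144 ATTCC regions, by a median of 0.63 on the log2 scale. The median was 0.19 for the 171-bp repeat, with IgG higher at 194 of 255 regions, and 0.18 for other multi-copy sequence, with IgG higher at 67 of 91. For single-copy regions it was -0.12, with IgG higher at 5 of 12. The same scaling placed IgG 2 above IgG 1 at the ATTCC regions by a median of 1.07 (log2), more than the difference between the antibodies. Scaled medians there were 152 in IgG 1, 328 in IgG 2, 150 in H3K4me3 1 and 164 in H3K4me3 2. IgG 1 thus fell between the H3K4me3 libraries, and only IgG 2 stood above both. The scale was not checked against sequencing depth.

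The 12 highest-ranked regions of both IgG libraries that also had a peak in both H3K4me3 libraries comprised 11 ATTCC satellites, on chromosomes 1, 4, 5, 10 and 17, and the chr17 alpha satellite region given above. None lay in an annotated gene. Among them, chr5:49666174-49667329 had 716 and 908 fragments in IgG and 651 and 733 in H3K4me3. The satellite chr17:21975840-21977150 had 488 and 703 fragments in IgG and 424 and 509 in H3K4me3. At both, IgG 2 had more fragments than both H3K4me3 libraries.

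Regions of both IgG libraries with no H3K4me3 peak were weak by comparison. The 12 highest-ranked comprised 8 of the 171-bp repeat, on chromosomes 1, 6, 10 and 13, 3 of ATTCC satellite, and 1 other. The first, chr10:41854519-41854947, had 79 and 124 fragments over backgrounds of 16.95 and 18.04, beside the tall chr10 satellite. Of the 12, only chr1:790919-791607 lay in a named gene, an intron of the long noncoding RNA gene LINC01409, with 19 and 17 fragments. Its sequence is again ATTCC satellite, GGAAT in capitals, at chr1:790847-791046.
LINC01409 intron: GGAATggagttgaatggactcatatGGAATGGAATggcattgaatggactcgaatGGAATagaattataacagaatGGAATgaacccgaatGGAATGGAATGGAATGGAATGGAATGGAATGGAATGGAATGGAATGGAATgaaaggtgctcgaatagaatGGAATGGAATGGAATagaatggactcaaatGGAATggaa
The other, chr22:18896259-18896517, lay 2042 bp from the start of the long noncoding RNA gene FAM230F and had 19 and 15 fragments.

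Among H3K4me3 peaks, those that coincided with both IgG libraries differed in position, sequence and height from those with no IgG peak. Without an IgG peak, 11985 H3K4me3 1 and 10319 H3K4me3 2 peaks had a median GC content of 66.0% and 67.5%, and 89.0% and 91.2% of them lay within 1 kb of a start site. Coinciding with both IgG libraries, 544 and 542 peaks had a median GC content of 40%, and 4.04% and 3.51% of them lay near a start site. Satellite or multi-copy sequence made up 97.8% and 97.6% of the latter. Their median pileup was 48 and 49 fragments, against 20 and 19 for peaks with no IgG. The 255 and 245 peaks that coincided with IgG 1 alone lay between, with 38.4% and 38.4% near a start site and 64.7% and 67.3% in satellite or multi-copy sequence, and their median pileups of 22 and 21 were close to those of peaks with no IgG. The 140 and 136 peaks that coincided with IgG 2 alone were 97.1% and 95.6% satellite or multi-copy sequence, with median pileups of 25.5 and 23 fragments. Within the H3K4me3 lists, 84.2% and 85.7% of ATTCC peaks, 72.3% and 75.8% of 171-bp peaks, 23.7% and 27.8% of other multi-copy peaks and 0.935% and 1.01% of single-copy peaks overlapped an IgG peak.

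The overlap was concentrated at the top of the H3K4me3 lists. Ranked by the p-value, all of the 100 strongest peaks in each H3K4me3 library coincided with an IgG peak, and 98 of the 100 in each were satellite or multi-copy sequence. Of the 1000 strongest, 385 and 420 coincided with IgG, and 633 and 598 lay within 1 kb of a start site.

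Single-copy promoters were the smallest overlap, and IgG 1 supplied nearly all of it. Of 10404 single-copy H3K4me3 1 peaks within 1 kb of a start site, 86 overlapped an IgG 1 peak and 6 an IgG 2 peak. For the 9189 such peaks of H3K4me3 2, these counts were 81 and 6. Seen from IgG, 146 single-copy IgG 1 peaks lay within 1 kb of a start site, 97 of them with a peak in either H3K4me3 library, against 17 and 6 for IgG 2. They were low, with medians of 11 and 10 fragments, and only 5 of the 146 and 4 of the 17 were found in the other IgG library. Their median GC content was 64% in IgG 1 and 50% in IgG 2.

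The heights are given for 3 promoters chosen after their values were seen. CNST, which encodes consortin, had 21 fragments in IgG 1 and 68 and 42 in the H3K4me3 libraries. NIPA2, a magnesium transporter gene, had 19 in IgG 1 and 25 and 26 in H3K4me3. At the start of SON, a splicing factor gene, IgG 1 had 15 fragments and no H3K4me3 peak overlapped it. IgG 2 had no peak at any of them.

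From the gene lists, IgG 1 peaks lay within 1 kb of a start site of KRT5, a basal keratin, among the 13 basal markers, of TUBB among 20 housekeeping genes, and of RPPH1, the RNA component of ribonuclease P, among 11 long noncoding RNA genes. IgG 2 had none in any of the lists. The KRT5 peak had 13 fragments over a background of 1.89. None of 12 centromere and kinetochore protein genes, 11 H3K4 methyltransferase genes, 4 H3K4 demethylase genes, 13 immediate early genes, 9 epithelial adhesion genes or 7 luminal receptor genes had an IgG peak. With 0.925% and 0.055% of all protein-coding genes called in IgG, a count of 0 does not set lists of this size apart. In the H3K4me3 libraries, where 51.8% and 47.7% of all protein-coding genes were called, 10 and 10 of the 12, 11 and 9 of the 11, 4 and 4 of the 4, 12 and 10 of the 13, 6 and 4 of the 9 and 2 and 3 of the 7 had one. Of 6 genes at 9p21, 1 had an H3K4me3 1 peak and none an H3K4me3 2 peak, and CDKN2A and CDKN2B had none in any list. Of 7 annotated genes from loci gained in this line, 5 and 3 had an H3K4me3 peak and none an IgG peak.

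All 12 single-copy regions called in both IgG libraries, among them regions on chromosome Y, had a peak in both H3K4me3 libraries. Some of them were tandem repeats, which was looked for after their sequences were seen. A region of MUC3A, a membrane mucin gene, had 30 and 27 fragments in IgG and 38 and 43 in H3K4me3, and matched itself at 87.8% of positions when shifted by 51 bases. The GPI intron region had 20 and 26 fragments in IgG and 24 and 25 in H3K4me3, and matched itself at 65.5% with a shift of 50 bases. A match of at least 60% over 600 bases, at any shift from 10 to 200 bases, was found in 4 of the 12 regions, and in 5 of 2527 single-copy genome windows (0.198%). It was found in 2.84% of all IgG 1 and 11.3% of all IgG 2 single-copy peaks, and in 0.264% and 0.204% of every 10th single-copy H3K4me3 peak.

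The remaining 12 libraries of the series also called these regions. Of the 597 regions of both IgG libraries, the 6 H3K4me3 libraries from vehicle and octanoic acid cultures called between 57.3% and 86.9%, and the 6 H3K27me3 libraries between 17.3% and 69.5%. The means were 70.1% ± 13.6 and 31.02% ± 21.6 (SD, n = 6 each, two-sided exact permutation p = 0.00866). Antibody and peak layout (narrow or broad) changed together here, so their parts cannot be told apart. Vehicle and octanoic acid did not separate: H3K4me3 gave 72.4% ± 13.0 and 67.8% ± 16.6 (SD, n = 3, exact permutation p = 0.9) and H3K27me3 27.1% ± 15.1 and 34.9% ± 30.0 (SD, n = 3, exact permutation p = 1), where the smallest p such a design allows is 0.1.

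Calls also differed by class. ATTCC regions were called in all 12 libraries at 44 of 164, or 26.8%, and 171-bp regions at 3 of 309, or 0.971%. In single libraries the ATTCC share ran from 75.6% to 94.5% for H3K4me3 and from 37.2% to 79.3% for H3K27me3, and the 171-bp share from 47.9% to 83.5% and from 2.59% to 59.9%. Replicate 1 had the highest share over all classes in each H3K27me3 group and in each H3K4me3 group. The lists covered between 3.50 and 25.1 Mb in these 12 libraries, and the H3K27me3 list with 25.1 Mb called 18.8% of the regions. Whether coverage bears on the shares was not tested. Of the 27 regions of both IgG libraries with no untreated H3K4me3 peak, up to 15 were called in another H3K4me3 library and up to 3 in an H3K27me3 library.

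**Figure D5:**
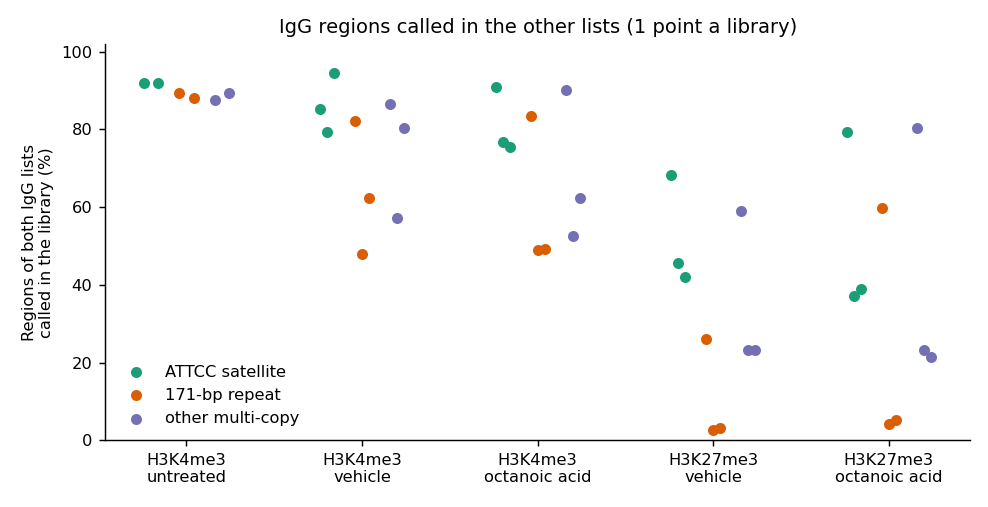
Share of the regions called in both IgG libraries (%, vertical axis) that each H3K4me3 and H3K27me3 library called, by group and by sequence class, 1 point a library. The 12 single-copy regions are not drawn. In the classes drawn, the untreated H3K4me3 libraries sit between 87.5% and 92.1%, and 4 of the 6 H3K27me3 libraries call under 6% of the 171-bp regions.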

How the data were processed

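The authors assayed cells with a CUTANA kit and called narrow peaks with MACS2 2.2.7.1 on hg38 per the labels. The aligner, the handling of duplicates and multi-mapped reads, and the use of a control library are not given in the sources used here, and each bears on peaks in repeats. The deposited lists give, per peak, a fold enrichment (ratio), and p- and q-values as −log10. The H3K27me3 lists have the broad layout, although the methods name another caller for them. Replicate numbers are those of the sample titles. The paper states biological triplicates for the octanoic acid and vehicle cultures. The titles do not say whether the 2 control libraries of an antibody came from separate cultures.

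Chromosome names and peak ends fitted the hg38 reference. Genes came from GENCODE. Peaks on the autosomes, X and Y entered the main values, and overlap meant at least 1 base. Pileup and background were recovered from the fold and p-value (fold = (pileup + 1)/(background + 1), Poisson tail), after the data were seen, as were the sequence classes, the tandem search and the DUX4, REXO1L and ribosomal DNA sets. The recovery was tested on data simulated with these same formulas, and 2000 of 2000 simulated pileups came back. This checks the solving only, not whether the caller used the formulas. The highest backgrounds and pileups of the lists lay beyond the simulated range. A start site, gap or block lay within the distances stated. Regions were ranked by the lower of their −log10 p percentiles in both IgG lists, and the 12 highest with and the 12 highest without H3K4me3 on the autosomes and X were described, plus genes of the lists, mitochondrial and ribosomal RNA genes and pseudogenes, and contigs. The members and lists were chosen with earlier results of these data known. Tests were two-sided exact permutations over libraries (Python 3.11.15, scipy 1.17.1). Alternatives were a q-value limit of 1e-05, all sequences, the 1000 strongest peaks, other distances and overlaps, each library left out, and a replicate block.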

Additional observations from a re-analysis of the deposited data

How the results depend on the processing

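Over the 10 values on number, length, position, sequence copies and fold, and over the shares on contigs and found in the other replicate, the direction held under each alternative except these. The difference in median fold, 0.23 (IgG minus H3K4me3), became -1.90 for the 1000 strongest peaks and ran from -0.20 to 0.66 with 1 library left out, turning without IgG 2. The difference in the share found in the other replicate became 3.55 percentage points for the 1000 strongest peaks, a choice that keeps most IgG peaks and few H3K4me3 peaks. Near chromosome ends the difference moved from 0.84 percentage points to 13.7 on all sequences, to 0.55 for the 1000 strongest peaks, to 1.33 without IgG 1 and to 0.36 without IgG 2. Near assembly gaps it moved from 8.76 to 5.45 for the 1000 strongest. The share of IgG peaks on H3K4me3 became 78.9% at a q-value of at most 1e-05, 72.5% on all sequences, 42.95% for the 1000 strongest and 66.8% with an overlap of at least 50%, and ran from 61.2% to 69.8% with a library left out. The share of H3K4me3 peaks on IgG became 9.27% on all sequences and 39.65% for the 1000 strongest, and ran from 5.66% to 8.21%. Regions in both IgG and no H3K4me3 library became 193 and regions in all 4 became 301 for the 1000 strongest. With a library left out the former ran from 60 to 387, since fewer lists then had to lack or share a peak, and the latter from 533 to 684.

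With the replicate block (differences within replicate numbers), each difference in means is the same by construction, -74.7 percentage points for peaks near start sites for example, and the smallest possible exact sign-flip p is 0.5. The labels give no shared culture for equal numbers. Deviations of paired libraries over 502 regions correlated at 0.14, in a single correlation. Soft-masked bases could not be counted, because the reference used is in upper case. Depth could not be compared, and repeats were judged from sequence alone.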
